A study of Mus musculus with 10 samples.

Results

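The genes described here are the mouse collagen genes, taken as every gene on the array whose symbol is Col, a number, the letter a and a number. The array carried 46 probe sets with 1 such symbol, for 44 of the 19938 genes measured, and each gene was read by its probe set with the highest mean. Collagens are extracellular proteins whose chains wind into triple helices. Fibrillar collagens build the tensile fibres of connective tissue, collagen IV builds the sheet of basement membranes, and other classes coat fibrils, anchor cells or span the plasma membrane. In the embryonic brain, collagen is known mainly from the pial and vascular basement membranes and the meninges rather than from the neural tissue between them.

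RNA from 5 kinds of mouse culture was measured, with 2 biological replicates each, on 10 arrays. The mESC group was the R1 embryonic stem (ES) cell line, of 129/Sv origin, kept on mitomycin C-treated embryonic fibroblast feeders with 15% serum and Lif at 1000 U/ml. The p-NSC_L group was primary spheres grown from these cells in serum-free N2 medium with Lif at 1000 U/ml. The p-NSC_LF group was spheres re-plated with Lif at 1000 U/ml, FGF at 10 ng/ml and heparin at 2 µg/ml. The d-NSC group was passaged on without Lif, in N2 and B27 medium with EGF and FGF at 20 ng/ml each and heparin at 2 µg/ml. The CNS-NSC group came from brains of ICR wild-type embryos at stage E11.5, in N2 medium with EGF and FGF at 20 ng/ml each and heparin at 2 µg/ml. The first 4 groups thus share 1 cell line, while CNS-NSC differs from them in mouse strain and in origin together, and these cannot be told apart. B27 was also part of the d-NSC medium and not of the CNS-NSC medium as the labels give them.

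Array medians lay between 7.66 and 7.76 on the log2 intensity scale, and replicates correlated at 0.9885 to 0.9972 across genes. Genes 2-fold or more apart between the replicates numbered 277 in CNS-NSC, 167 in p-NSC_L, 30 in mESC, 23 in p-NSC_LF and 1 in d-NSC. Collagens shifted together between replicates of some groups: 43 of 44 were higher in p-NSC_L replicate 1 than in replicate 2, by a median of 0.19, against 0.06 over all genes. In mESC 40 of 44 were higher in replicate 2, and in d-NSC 39 were higher in replicate 1. Over all genes, the share higher in replicate 1 was 59.0% in p-NSC_L, 50.3% in mESC and 56.2% in d-NSC. The neural stem cell markers fixed for these cultures had a mean level of 8.29 to 8.41 on the mESC and primitive sphere arrays, 10.58 to 10.61 in d-NSC and 11.88 to 11.94 in CNS-NSC. Pou5f1, the pluripotency transcription factor, stood at 11.15 and 10.94 in d-NSC, against 6.97 and 6.92 in CNS-NSC. RNA came from whole cultures, so fewer cells of a type and less RNA per cell cannot be told apart.

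Most collagen genes differed little between the cultures. The span between the highest and the lowest of the 5 group means had a median of 0.31 log2 units over the 44 collagens, against 0.59 over all genes. A span of at least 1, which is 2-fold, was found for 4 collagens (9.09%), against 28.4% of all genes. These 4 were Col4a1, Col5a2, Col12a1 and Col18a1. In 23 collagens every group mean lay below 8.10, the median level of a gene on these arrays, and 21 reached it in at least 1 group. Such low levels can be near the array's background, where differences are compressed.

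**Figure D1:**
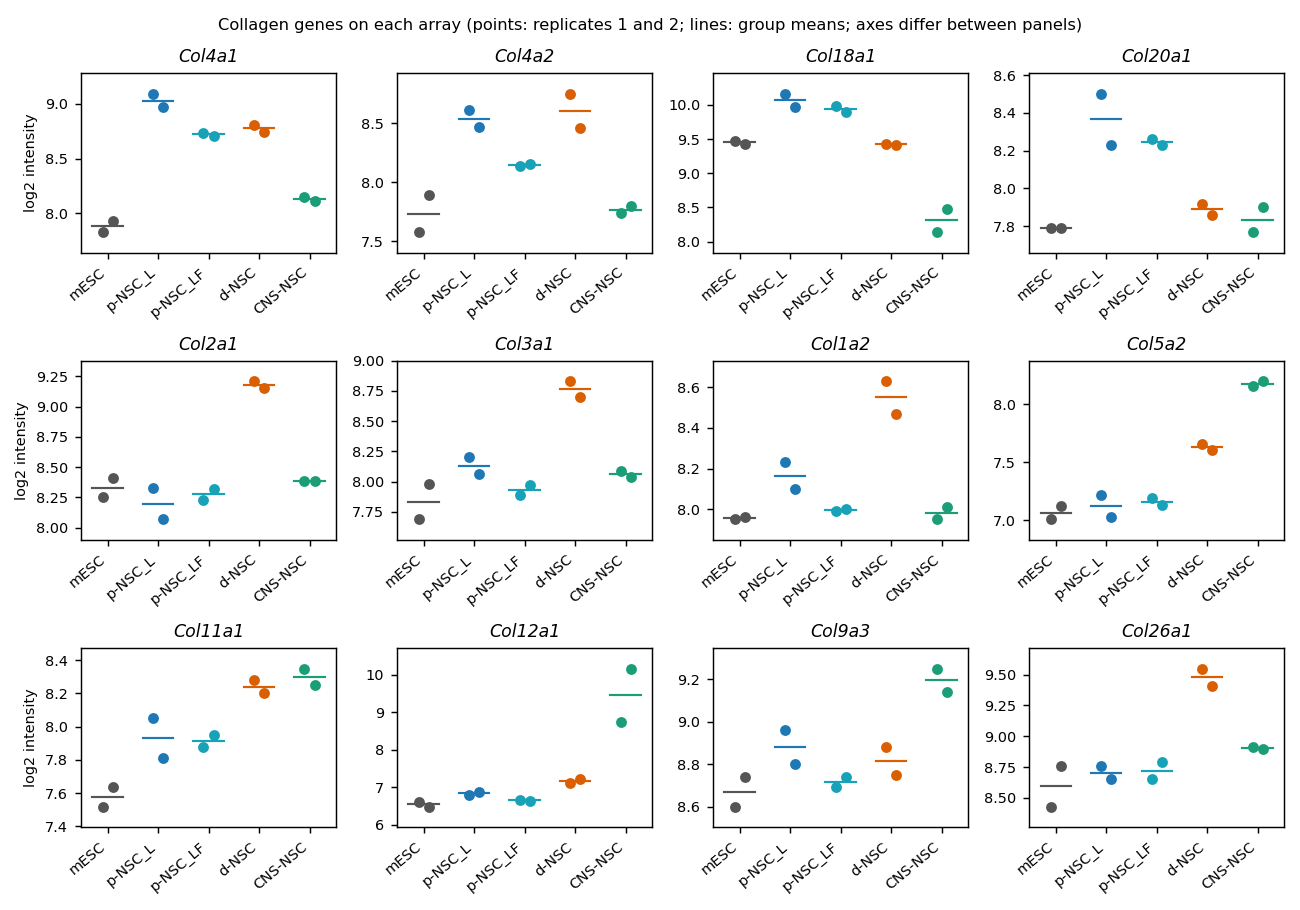
Log2 intensity of 12 collagen genes on each of the 10 arrays, with points for the arrays of the 5 culture groups, lines for group means, and an axis of its own for each gene. Col12a1 stands high in CNS-NSC, at 8.73 and 10.16, and Col18a1 stands low there, at 8.14 and 8.48.

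Differences were tested with limma in 5 comparisons, each over all 19938 genes, and are given as log2 differences of group means ± SE with n = 2 arrays a group. The SE comes from limma and rests on a gene's spread within all 5 groups, not only the 2 compared. A wide gap between replicates in 1 group thus raises a gene's SE in every comparison, as for Col12a1 in CNS-NSC. A gene is called where the Benjamini-Hochberg adjusted p of limma lies below 0.05. Between p-NSC_L and mESC 4 collagens were called, or 9.09% of the 44 against 13.4% of all genes. These were 4 higher and 0 lower in p-NSC_L, where 6.56% of all genes were higher and 6.79% lower. Between p-NSC_LF and p-NSC_L 0 were called, against 1.78% of all genes (1.1% higher and 0.677% lower). Between d-NSC and p-NSC_LF 9 were called, 7 higher and 2 lower in d-NSC, or 20.5% against 38.6% of all genes (19.3% higher and 19.3% lower). Between d-NSC and CNS-NSC 13 were called, 9 higher and 4 lower in d-NSC, or 29.5% against 34% of all genes (17.6% higher and 16.5% lower). Between CNS-NSC and mESC 10 were called, 8 higher and 2 lower in CNS-NSC, or 22.7% against 43.8% of all genes (21.7% higher and 22.1% lower). In this fit the share of collagens called was below the share of all genes in each comparison. It was above it with the dimmer 50% of genes left out in d-NSC minus CNS-NSC (8 of 14 collagens, 57.1%, against 53.5%) and with array weights in p-NSC_L minus mESC (9.09% against 8.92%). In all, 19 collagens were called in at least 1 comparison and 25 in none, and the 25 had spans of 0.06 to 0.46. The share of all genes called in at least 1 comparison was not counted. It cannot lie below 43.8%, the share in CNS-NSC minus mESC alone. The comparisons share groups, so their counts are not independent.

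**Figure D2:**
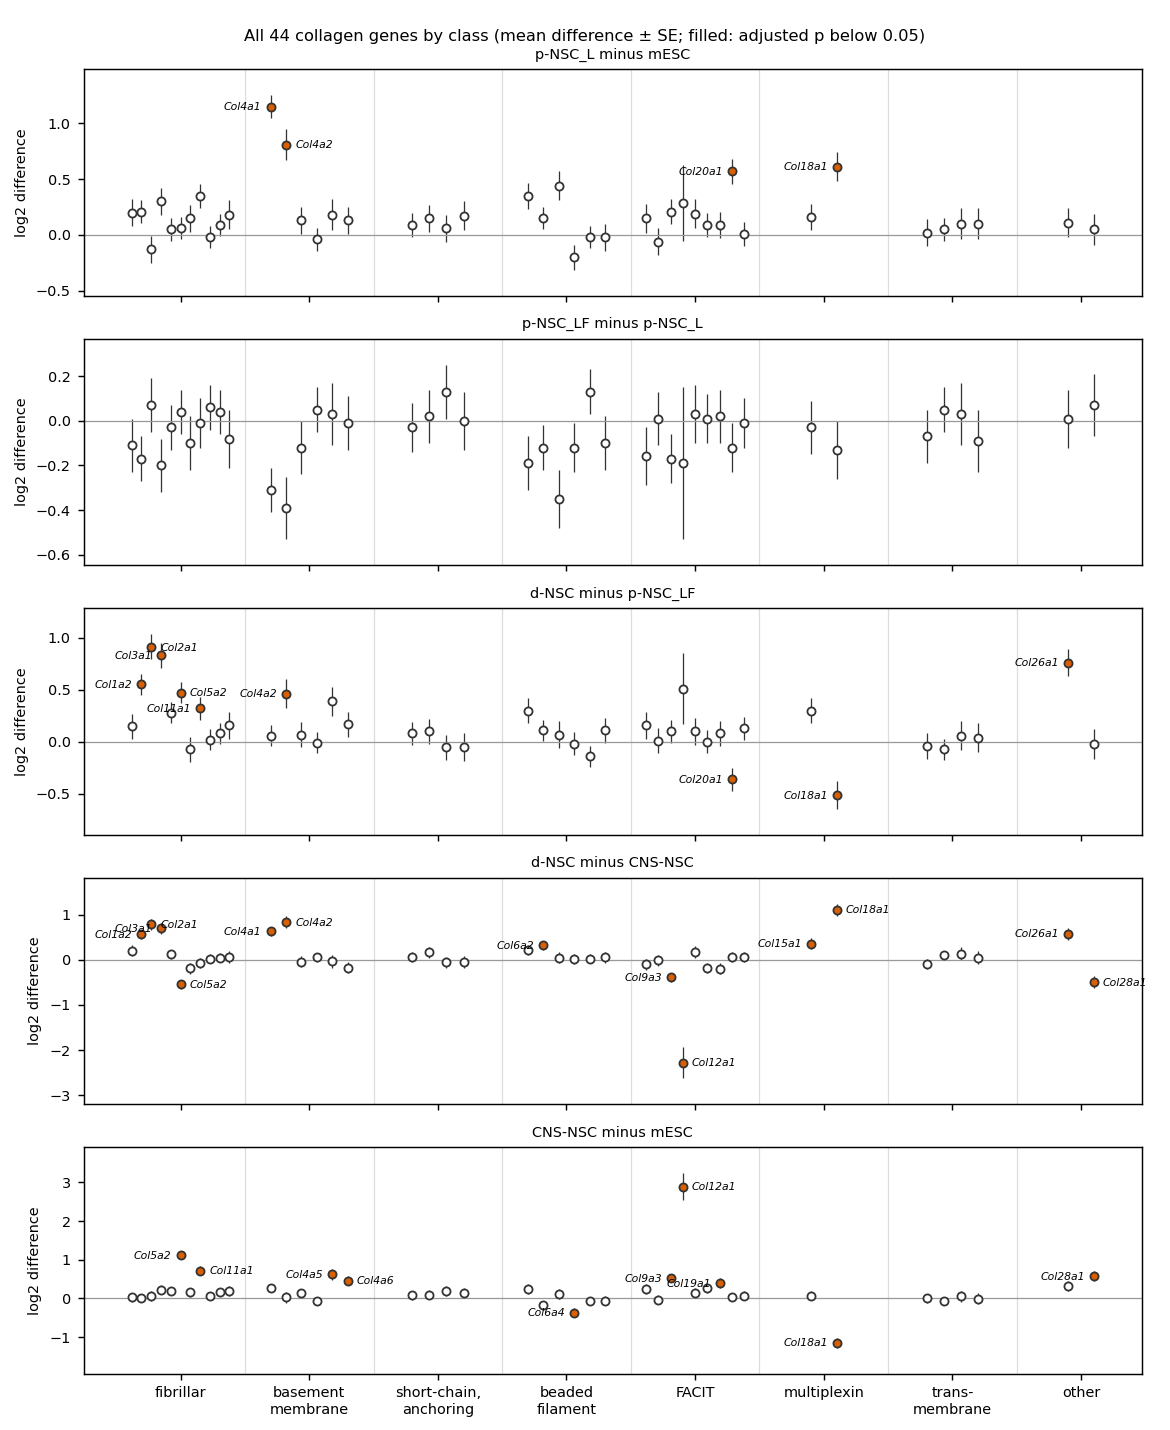
Log2 difference ± SE (n = 2 arrays a group) of each of the 44 collagen genes in the 5 comparisons, ordered by collagen class, with filled points where limma's adjusted p lay below 0.05. In d-NSC minus p-NSC_LF 5 of the 11 fibrillar points are filled, all above 0 (45.5% against 38.6% of all genes called). No point is filled in p-NSC_LF minus p-NSC_L.

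Among the 6 basement membrane chains, Col4a1 and Col4a2, the pair that forms the ubiquitous collagen IV trimer, rose on leaving ES cell culture. Col4a1 read 7.83 and 7.93 in mESC, 9.09 and 8.97 in p-NSC_L, 8.73 and 8.71 in p-NSC_LF, 8.81 and 8.74 in d-NSC, and 8.15 and 8.11 in CNS-NSC. Both mESC arrays were the lowest of the 10, and every array of the 3 ES-derived sphere groups was above both CNS-NSC arrays. Col4a1 was 1.15 ± 0.10 higher in p-NSC_L than in mESC, a 2.226-fold difference (limma adjusted p = 0.00012), and 0.64 ± 0.10 higher in d-NSC than in CNS-NSC (adjusted p = 6e-04). The difference between p-NSC_LF and p-NSC_L was -0.31 ± 0.10 and was not called (adjusted p = 0.17), and that between CNS-NSC and mESC was 0.26 ± 0.10 (adjusted p = 0.06).

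Col4a2 read 7.58 and 7.89 in mESC, 8.61 and 8.47 in p-NSC_L, 8.14 and 8.16 in p-NSC_LF, 8.75 and 8.46 in d-NSC, and 7.74 and 7.80 in CNS-NSC. The CNS-NSC arrays fell between the mESC arrays, while all 6 ES-derived sphere arrays lay above them. It was 0.81 ± 0.14 higher in p-NSC_L than in mESC (limma adjusted p = 0.004), 0.46 ± 0.14 higher in d-NSC than in p-NSC_LF (adjusted p = 0.022) and 0.84 ± 0.14 higher in d-NSC than in CNS-NSC (adjusted p = 0.00081). The rise from p-NSC_LF to d-NSC was lost without p-NSC_LF replicate 1, p-NSC_LF replicate 2 or d-NSC replicate 1 (adjusted p up to 0.19). Col4a1 over the same step differed by 0.06 ± 0.10 (adjusted p = 0.73), and the difference between these genes was not tested. The genes lie head to head, and their RefSeq upstream windows share 78 bases.

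Col4a5 and Col4a6, the X-linked head-to-head pair of collagen IV genes, were higher in the embryo-derived cells than in ES cells. Col4a5 read 7.32 and 7.56 in mESC and 8.05 and 8.06 in CNS-NSC, with d-NSC at 8.14 and 7.93. The groups mESC and CNS-NSC did not overlap, at a difference of 0.62 ± 0.14 (limma adjusted p = 0.0044). The difference of Col4a5 between d-NSC and p-NSC_LF, 0.39 ± 0.14, just missed the threshold (adjusted p = 0.051). Col4a6 read 6.75 and 6.99 in mESC and 7.24 and 7.41 in CNS-NSC. This difference of 0.46 ± 0.12 (adjusted p = 0.0094) was lost without mESC replicate 1 or CNS-NSC replicate 2 (adjusted p up to 0.095). The third pair, Col4a3 and Col4a4, which are among the chains of the glomerular basement membrane, was not called in any comparison. It ranged over 7.29 to 7.58 and 7.41 to 7.58 on the 10 arrays.

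Upstream letters of the RefSeq windows of Col4a5 (build GRCm38.p6, chrX:141475169-141475369, plus strand) and Col4a6 (chrX:141474096-141474326, minus strand) are shown because these head-to-head genes rose together and have upstream letters outside annotated genes. Capitals mark matches, on either strand, to CCAAT, which reads ATTGG on the opposite strand, to TATAAA, which reads TTTATA there, or to GGGCGG, which reads CCGCCC there.
Col4a5: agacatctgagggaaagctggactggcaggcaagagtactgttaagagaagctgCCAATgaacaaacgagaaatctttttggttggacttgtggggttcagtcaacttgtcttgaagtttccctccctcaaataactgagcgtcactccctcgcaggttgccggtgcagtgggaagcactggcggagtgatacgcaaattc
Col4a6: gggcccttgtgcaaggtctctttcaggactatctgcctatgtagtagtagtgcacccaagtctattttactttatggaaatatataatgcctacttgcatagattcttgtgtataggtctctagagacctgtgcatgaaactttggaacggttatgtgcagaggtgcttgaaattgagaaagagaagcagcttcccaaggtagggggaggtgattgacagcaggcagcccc
The stretches end 49 bases before the window's start site for Col4a5 and 19 bases before it for Col4a6, since the bases between lie inside the annotated gene and were left out. The Col4a5 stretch held 1 CCAAT match, which begins 196 bases before that start site, and the Col4a6 stretch held none of the 3 motifs.

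**Figure D3:**
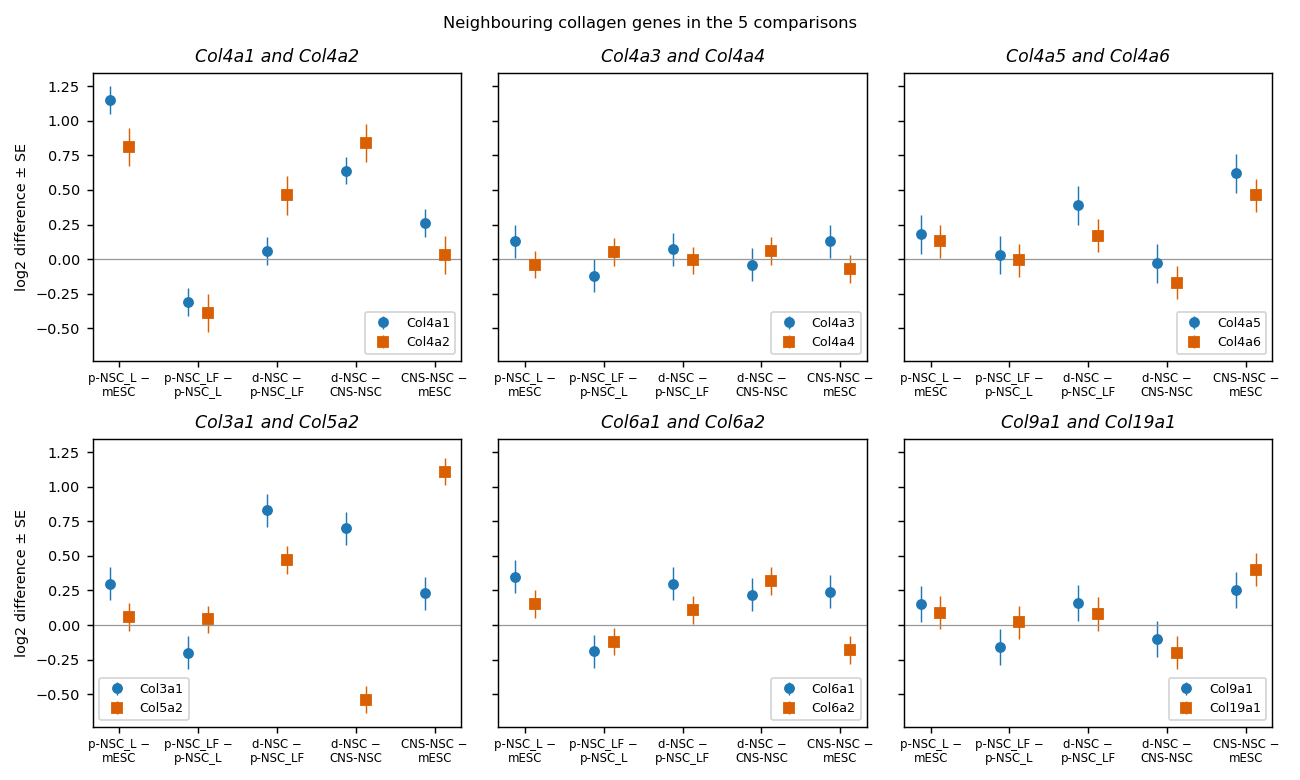
Log2 difference ± SE (n = 2 arrays a group) of both members of 6 neighbouring collagen gene pairs in the 5 comparisons. Col4a1 and Col4a2 are both higher in p-NSC_L than in mESC, at 1.15 and 0.81, whereas Col3a1 and Col5a2 lie on opposite sides of 0 in d-NSC minus CNS-NSC, at 0.70 and -0.54.

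Of the 11 fibrillar chains, 5 were called in d-NSC minus p-NSC_LF, all higher in d-NSC, a share of 45.5% against 38.6% of all genes. Apart from Col3a1 and Col5a2, which are a neighbouring pair, the fibrillar genes given by their values (Col2a1, Col1a2, Col1a1 and Col11a1), and Col15a1, were chosen after their values were seen. Col2a1, the chain of cartilage fibrils that is also made by early neural epithelium, read 8.23 and 8.32 in p-NSC_LF, 9.21 and 9.15 in d-NSC, and 8.39 on both CNS-NSC arrays. Col3a1, which forms fibrils with type I collagen in distensible tissues, read 7.89 and 7.97, then 8.83 and 8.70, and 8.09 and 8.04 in CNS-NSC. Col1a2, the second chain of type I collagen, read 7.99 and 8.0, then 8.63 and 8.47, and 7.95 and 8.01 in CNS-NSC. In all of these genes the d-NSC arrays were the highest 2 of the 10. The rise from p-NSC_LF to d-NSC was 0.91 ± 0.12 for Col2a1 (limma adjusted p = 0.00015), 0.83 ± 0.12 for Col3a1 (adjusted p = 0.00033) and 0.55 ± 0.10 for Col1a2 (adjusted p = 0.0015). Against CNS-NSC, d-NSC was higher by 0.79 ± 0.12 (adjusted p = 0.00045), 0.70 ± 0.12 (adjusted p = 0.0012) and 0.57 ± 0.10 (adjusted p = 0.0015), in the same order. These 6 calls were kept without each array in turn and under every other setting in which the gene was tested.

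Col1a1, the main chain of type I collagen and the partner of Col1a2 in the trimer, was not called in any comparison. It read 8.34 and 8.29 in p-NSC_LF, 8.44 and 8.48 in d-NSC, and 8.32 and 8.20 in CNS-NSC. Its difference between d-NSC and p-NSC_LF was 0.15 ± 0.12 (limma adjusted p = 0.38). Its values ranged over 8.20 to 8.58, and the arrays of p-NSC_LF and d-NSC did not overlap.

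Col5a2 and Col11a1, chains of the minor fibrillar collagens that nucleate and limit fibrils, had their highest group means in CNS-NSC, followed by d-NSC. Col5a2 read 7.01 and 7.12 in mESC, 7.22 and 7.03 in p-NSC_L, 7.19 and 7.13 in p-NSC_LF, 7.66 and 7.61 in d-NSC, and 8.16 and 8.20 in CNS-NSC. The d-NSC and CNS-NSC arrays were apart from each other and from all others. Col5a2 was 1.11 ± 0.10 higher in CNS-NSC than in mESC (limma adjusted p = 1.1e-05), 0.47 ± 0.10 higher in d-NSC than in p-NSC_LF (adjusted p = 0.0044) and -0.54 ± 0.10 in d-NSC minus CNS-NSC (adjusted p = 0.0024). Its neighbour on the chromosome, Col3a1, was 0.70 ± 0.12 higher in d-NSC than in CNS-NSC, so the 2 genes were called in opposite directions there. Col11a1 read 7.52 and 7.64 in mESC, 7.88 and 7.95 in p-NSC_LF, 8.28 and 8.20 in d-NSC, and 8.35 and 8.25 in CNS-NSC. It was 0.72 ± 0.11 higher in CNS-NSC than in mESC (adjusted p = 0.00042). Its rise of 0.32 ± 0.11 from p-NSC_LF to d-NSC (adjusted p = 0.046) was lost without any 1 of the 4 arrays (adjusted p up to 0.21). The other fibrillar chains, Col5a1, Col5a3, Col11a2, Col24a1 and Col27a1, were called in no comparison.

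The 250 bases before the RefSeq starts of Col1a2 (GRCm38.p6, chr6:4505368-4505617, plus strand) and Col3a1 (chr1:45311288-45311537, plus strand) are shown because both genes rose in d-NSC. Capitals mark the same motifs as above.
Col1a2: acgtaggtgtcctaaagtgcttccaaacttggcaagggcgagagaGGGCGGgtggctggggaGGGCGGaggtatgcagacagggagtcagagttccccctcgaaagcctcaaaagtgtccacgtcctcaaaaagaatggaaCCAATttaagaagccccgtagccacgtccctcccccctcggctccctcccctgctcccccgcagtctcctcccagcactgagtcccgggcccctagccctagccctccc
Col3a1: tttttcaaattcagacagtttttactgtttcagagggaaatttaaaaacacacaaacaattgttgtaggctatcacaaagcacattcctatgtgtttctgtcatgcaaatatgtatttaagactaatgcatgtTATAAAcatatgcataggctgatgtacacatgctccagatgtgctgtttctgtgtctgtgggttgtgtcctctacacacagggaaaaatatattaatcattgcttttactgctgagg
Before Col1a2 there were GGGCGG matches starting 205 and 188 bases before the start of the gene and a CCAAT match at 109, and before Col3a1 a TATAAA match at 117. The windows of these genes shared no motif of the 3. RefSeq windows were found for 35 of the 44 collagens, 38 windows in all. Over the full 250 bases before each start, with any bases inside annotated genes included, CCAAT was in 34.2% of them and in 33.8% of 32851 windows of all genes, TATAAA in 13.2% and 12.4%, and GGGCGG in 57.9% and 32.7%. A match is a description of the letters and not a binding site.

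Col12a1 and Col18a1 had the largest spans, 2.89 and 1.75. Col12a1, a fibril-associated collagen (FACIT) that coats fibrils in tendon and in tissues under tension, read 6.61 and 6.49 in mESC, 6.81 and 6.88 in p-NSC_L, 6.67 and 6.64 in p-NSC_LF, 7.11 and 7.21 in d-NSC, and 8.73 and 10.16 in CNS-NSC. Both CNS-NSC arrays lay above the other 8, and they differed from each other by 1.43, the only gap of 1 or more between replicates among the collagens. Col12a1 was 2.89 ± 0.34 higher in CNS-NSC than in mESC, 7.426-fold (limma adjusted p = 5e-05). It was -2.28 ± 0.34 in d-NSC minus CNS-NSC, a 4.871-fold difference (adjusted p = 0.00044). With 1 array left out at a time the first difference was 2.18 to 3.61 and the second -3.0 to -1.57, called each time. On the same 2 CNS-NSC arrays the mean level of 14 fibroblast markers was 7.85 and 7.75, and that of 7 meningeal markers 6.99 and 7.21. These means hide single markers that moved in both directions. Prrx1 read 10.07 and 10.83 and Foxc1 8.14 and 9.10, while Pdgfra read 10.89 and 8.52. The part of these markers in the Col12a1 difference was not tested.

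Col18a1, a basement membrane multiplexin whose end fragment is endostatin, read 9.47 and 9.43 in mESC, 10.16 and 9.97 in p-NSC_L, 9.98 and 9.90 in p-NSC_LF, 9.43 and 9.41 in d-NSC, and 8.14 and 8.48 in CNS-NSC. It was highest in the primitive spheres and lowest in CNS-NSC, with mESC and d-NSC together at 9.41 to 9.47 between them. The difference was -1.14 ± 0.13 in CNS-NSC minus mESC (limma adjusted p = 4e-05) and 1.11 ± 0.13 in d-NSC minus CNS-NSC, 2.16-fold (adjusted p = 8.2e-05). It rose by 0.61 ± 0.13 from mESC to p-NSC_L (adjusted p = 0.011), a call lost without mESC replicate 1, mESC replicate 2 or p-NSC_L replicate 1 (adjusted p up to 0.079). It fell by 0.51 on the log2 scale, SE 0.13, from p-NSC_LF to d-NSC (adjusted p = 0.009), a call lost without p-NSC_LF replicate 1 or d-NSC replicate 2 (adjusted p up to 0.066). RefSeq also gives Col18a1 a start inside the gene, and 1 probe set does not separate transcripts from the 2 starts.

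The bases before its outer start (GRCm38.p6, chr10:77166531-77166780, minus strand) are shown because this gene set ES-derived apart from embryo-derived cells.
Col18a1: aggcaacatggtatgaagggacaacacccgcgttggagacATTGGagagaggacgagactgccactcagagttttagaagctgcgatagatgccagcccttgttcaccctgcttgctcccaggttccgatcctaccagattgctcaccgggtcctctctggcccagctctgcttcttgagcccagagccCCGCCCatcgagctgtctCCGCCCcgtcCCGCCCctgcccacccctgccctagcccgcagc
They held a CCAAT match, as ATTGG, starting 210 bases before the start, and GGGCGG matches, as CCGCCC, at 61, 43 and 33. In the other multiplexin, Col15a1, d-NSC read 7.78 and 7.71 and CNS-NSC 7.29 and 7.48. The difference of Col15a1, 0.36 ± 0.12 (limma adjusted p = 0.043), was lost without d-NSC replicate 1, d-NSC replicate 2 or CNS-NSC replicate 1 (adjusted p up to 0.2).

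Of the other FACIT chains, Col9a3, Col19a1 and Col20a1 were called. Apart from the neighbouring pairs Col9a1 and Col19a1, and Col6a1 and Col6a2, the genes of this and the next paragraph were chosen after their values were seen. Col9a3, a chain of the collagen IX that decorates cartilage fibrils, read 8.60 and 8.74 in mESC, 8.88 and 8.75 in d-NSC and 9.25 and 9.14 in CNS-NSC. Both CNS-NSC arrays were the highest of the 10, 0.53 ± 0.11 above mESC (limma adjusted p = 0.0026). The d-NSC minus CNS-NSC difference of -0.39 ± 0.11 (adjusted p = 0.02) was lost without d-NSC replicate 2 or CNS-NSC replicate 1 (adjusted p up to 0.15). Col20a1 read 7.79 on both mESC arrays, 8.50 and 8.23 in p-NSC_L, 8.26 and 8.23 in p-NSC_LF, and 7.92 and 7.86 in d-NSC, so that both primitive sphere groups lay above the others. It rose by 0.57 ± 0.11 from mESC to p-NSC_L (adjusted p = 0.0088), lost without either mESC array (adjusted p up to 0.064). It fell by 0.36 from p-NSC_LF to d-NSC (adjusted p = 0.03), lost without any 1 of the 4 arrays (adjusted p up to 0.15). Col19a1 was 0.40 ± 0.12 higher in CNS-NSC than in mESC (adjusted p = 0.017), lost without mESC replicate 1 or CNS-NSC replicate 1 (adjusted p up to 0.12). Its neighbour Col9a1 ranged over 7.35 to 7.79 and was not called. Col9a2, Col14a1, Col16a1 and Col22a1 were not called either, Col9a2 with the smallest span of all, 0.06.

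Collagen VI forms beaded filaments around cells, and 2 of its 6 chains were called in the main fit, each once. Col6a5 had another probe set that was not kept. It read 7.32 and 7.28 in mESC and 6.52 and 6.83 in CNS-NSC, while the kept one was near flat. With the mean of probe sets Col6a5 was called lower in CNS-NSC than in mESC. Col6a2 was 0.32 ± 0.10 higher in d-NSC, at 8.08 and 8.03, than in CNS-NSC, at 7.79 and 7.68 (limma adjusted p = 0.03), a call lost without d-NSC replicate 1, d-NSC replicate 2 or CNS-NSC replicate 2 (adjusted p up to 0.15). Col6a1, its partner in the trimer and its neighbour, read 8.06 and 7.91 in d-NSC and 7.74 and 7.79 in CNS-NSC, and was not called. Col6a4 was -0.37 ± 0.11 in CNS-NSC minus mESC (adjusted p = 0.024), lost without mESC replicate 2, CNS-NSC replicate 1 or CNS-NSC replicate 2 (adjusted p up to 0.14). Col6a3 came near the threshold in p-NSC_L minus mESC, at 0.44 ± 0.13 (adjusted p = 0.052). Col26a1 read 8.65 and 8.79 in p-NSC_LF, 9.55 and 9.41 in d-NSC, and 8.91 and 8.90 in CNS-NSC, with d-NSC highest. It rose by 0.76 ± 0.13 from p-NSC_LF to d-NSC (adjusted p = 0.00086). It was 0.58 ± 0.13 higher in d-NSC than in CNS-NSC (adjusted p = 0.0052), lost without d-NSC replicate 1 (adjusted p = 0.054). Col28a1 read 6.85 and 7.20 in mESC and 7.50 and 7.72 in CNS-NSC, a difference of 0.58 ± 0.14 (adjusted p = 0.005), lost without mESC replicate 1 (adjusted p = 0.056). In d-NSC minus CNS-NSC it was -0.49 ± 0.14 (adjusted p = 0.018), lost without d-NSC replicate 1, d-NSC replicate 2 or CNS-NSC replicate 2 (adjusted p up to 0.11).

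Of the 4 short-chain and anchoring collagens, Col7a1, Col8a1, Col8a2 and Col10a1, 0 were called in any comparison, with spans of 0.14 to 0.28. Of the 4 transmembrane collagens, Col13a1, Col17a1, Col23a1 and Col25a1, 0 were called, with spans of 0.10 to 0.19. In single comparisons 1.78% to 43.8% of all genes were called.

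No collagen was called between the 2 primitive sphere groups. With FGF and heparin added and the spheres re-plated, differences of the 44 collagens ranged from -0.39 to 0.13, with a median of -0.03 against 0.01 over all genes. The lowest limma adjusted p among the collagens was 0.17, for Col4a1. The count was 0 under each other setting and without each array in turn.

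Genes that process collagen were called as well, several with larger differences than the chains. Prolyl and lysyl hydroxylases and chaperones modify and fold procollagen in the endoplasmic reticulum, proteases trim its ends and oxidases cross-link it. Of 18 measured genes for hydroxylation, glycosylation and folding, 9 were higher and 5 lower in d-NSC than in p-NSC_LF, 77.8% against 38.6% of all genes. Serpinh1, the collagen-specific chaperone Hsp47, read 7.71 and 7.64 in p-NSC_LF, 10.86 and 10.78 in d-NSC, 9.95 and 10.05 in CNS-NSC and 7.97 and 7.76 in mESC. All d-NSC and CNS-NSC arrays stood above the other 6, and d-NSC stood above p-NSC_LF by 3.14 ± 0.12 (limma adjusted p = 5.8e-08). P3h2, a prolyl 3-hydroxylase of collagen IV, rose by 4.54 ± 0.31 over the same step (adjusted p = 2e-06), and P4ha1, a catalytic subunit of prolyl 4-hydroxylase, by 1.07 ± 0.10 (adjusted p = 2e-05). Sec24d, the coat protein for procollagen export, was lower in d-NSC at -1.45 ± 0.12 (adjusted p = 6.9e-06), and Crtap, a partner of prolyl 3-hydroxylase, at -1.26 ± 0.12 (adjusted p = 2.4e-05). In p-NSC_L minus mESC the same list had 2 genes higher and 4 lower, 33.3% against 13.4% of all genes. Plod2, a lysyl hydroxylase, was -1.41 ± 0.13 there (adjusted p = 0.00019) and rose again by 0.73 ± 0.13 from p-NSC_L to p-NSC_LF (adjusted p = 0.025), and P4ha1 was -1.05 ± 0.10 in p-NSC_L minus mESC (adjusted p = 0.00023).

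Of 13 genes for secretion and propeptide cleavage, 3 were higher and 4 lower in d-NSC than in p-NSC_LF, 53.8% against 38.6% of all genes. Those higher included the procollagen proteinases Adamts3 (2.99 ± 0.31) and Bmp1 (2.08 ± 0.13). Those lower included Pcolce2 (-2.22 ± 0.17) and Pcolce (-1.62 ± 0.15), enhancers of Bmp1. Of 6 cross-linking genes 2 were higher and 1 lower, or 50%. Pxdn, the peroxidase that cross-links collagen IV, was 3.20 ± 0.13 higher in d-NSC than in p-NSC_LF (limma adjusted p = 6.2e-08) and 1.08 ± 0.13 higher than in CNS-NSC (adjusted p = 8.5e-05). Tgm2, a transglutaminase, was -1.75 ± 0.25 in d-NSC minus p-NSC_LF. Of 9 collagen receptors 4 were higher and 0 lower, or 44.4%, near the 38.6% of all genes. Among them were Mrc2 (1.97 ± 0.14), an uptake receptor for collagen, and Ddr1 (1.70 ± 0.16), a collagen-binding kinase. Of 7 collagen-degrading proteases 4 were higher and 0 lower, or 57.1% against the same 38.6%, led by Mmp16 (1.83 ± 0.25).

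Among 12 basement membrane partners of collagen IV, 2 were higher and 5 lower in d-NSC than in p-NSC_LF, 58.3% against 38.6% of all genes. Hspg2, the proteoglycan perlecan, was -1.76 ± 0.13, and the nidogens that link laminin to collagen IV were -1.63 ± 0.16 for Nid2 and -1.57 ± 0.22 for Nid1, while the laminin chain Lamb1 was 1.33 ± 0.15 higher. In p-NSC_L minus mESC, where Col4a1 and Col4a2 rose, 4 of the 12 were higher and 1 lower, 41.7% against 13.4% of all genes. Agrn rose there by 1.01 ± 0.13 (limma adjusted p = 0.00086) and Hspg2 by 1.00 ± 0.13 (adjusted p = 0.0011). In d-NSC minus CNS-NSC 5 were higher and 2 lower, 58.3% against 34% of all genes. Nid1 at 2.60 ± 0.22 (adjusted p = 8.7e-06), Nid2 at 2.20 ± 0.16 (adjusted p = 3.8e-06) and Lama1 at 2.74 ± 0.21 (adjusted p = 3.9e-06) went in the direction of Col4a1, Col4a2 and Col18a1. The 2 lower, in the opposite direction, were Lama4 at -1.53 ± 0.18 (limma adjusted p = 1e-04) and Agrn at -0.40 ± 0.13 (limma adjusted p = 0.033).

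**Figure D4:**
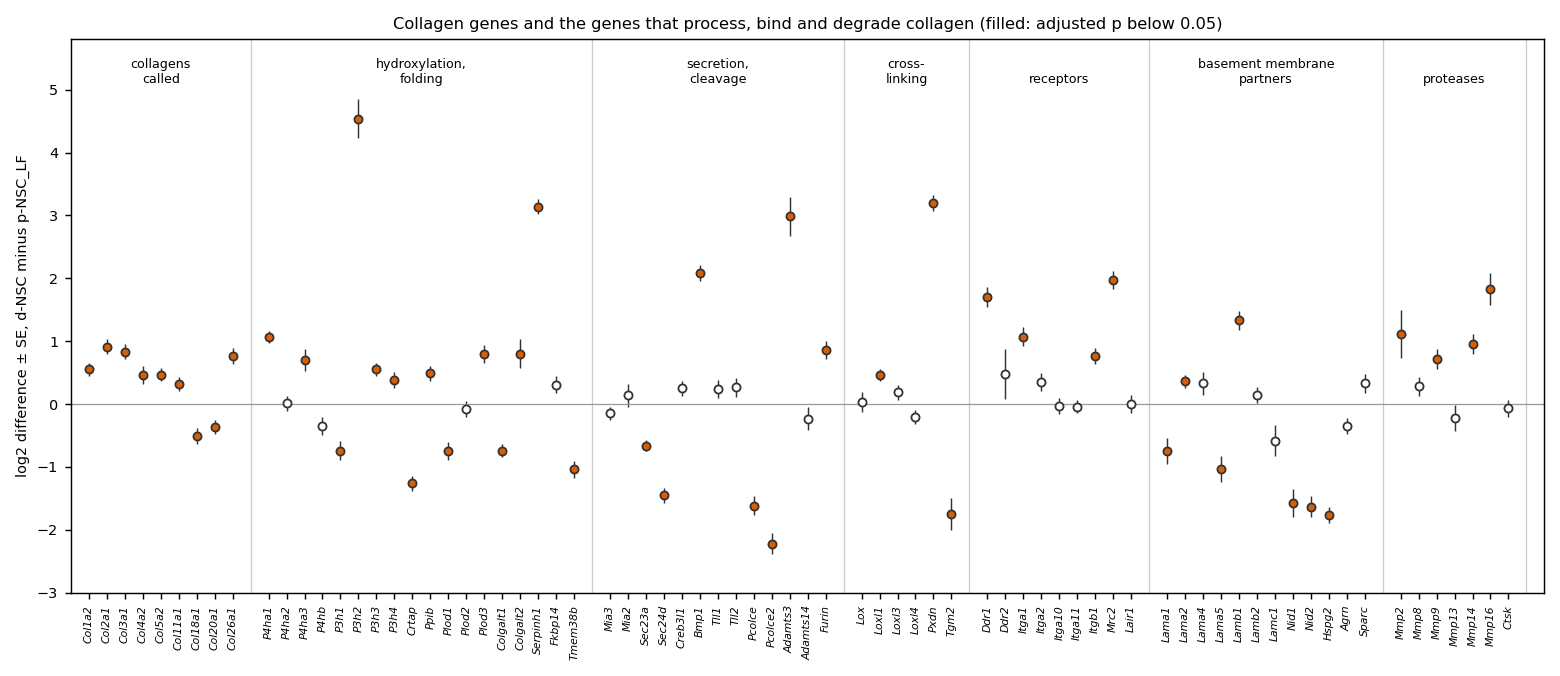
Log2 difference ± SE (n = 2 arrays a group) in d-NSC minus p-NSC_LF of the 9 collagens called there and of every measured gene of the lists that process, bind or degrade collagen, filled where limma's adjusted p lay below 0.05. Serpinh1 differs by 3.14 and P3h2 by 4.54 in d-NSC minus p-NSC_LF, more than any collagen does in that comparison.

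Markers of other collagen-making cells were counted in the same comparisons. Of all genes, 13.4% were called in p-NSC_L minus mESC and 38.6% in d-NSC minus p-NSC_LF, against which the marker counts stand. Of 14 fibroblast markers 6 were higher and 2 lower in p-NSC_L than in mESC (57.1%), and 10 were higher and 1 lower in d-NSC than in p-NSC_LF (78.6%). Their mean level was 6.99 to 7.05 in mESC, 7.43 to 7.67 in p-NSC_L, 7.17 to 7.19 in p-NSC_LF, 8.25 to 8.30 in d-NSC and 7.75 to 7.85 in CNS-NSC. Dcn, the fibroblast proteoglycan decorin, read 6.06 and 6.48 in mESC, 8.79 and 10.41 in p-NSC_L, 7.28 and 7.24 in p-NSC_LF, 9.54 on both d-NSC arrays, and 6.55 and 6.15 in CNS-NSC. Lum, another fibroblast proteoglycan, read 4.91 to 6.15, below the lower quartile of its array on all 10. It was called higher in d-NSC than in p-NSC_LF, by 0.94 ± 0.14 (limma adjusted p = 4e-04). Lum was also higher in p-NSC_L than in mESC, by 0.51 ± 0.14 (limma adjusted p = 0.04). Thy1 was lowest in d-NSC, at 8.08 and 7.89. Of 14 endoderm markers 6 were higher and 0 lower in p-NSC_L than in mESC (42.9%), and 9 and 0 in d-NSC than in p-NSC_LF (64.3%), with mean levels of 7.25 to 7.30 in mESC, 7.63 to 7.73 in p-NSC_L, 7.43 to 7.44 in p-NSC_LF and 8.36 to 8.39 in d-NSC. In d-NSC minus CNS-NSC 9 endoderm markers were higher and 1 lower, 71.4% against 34% of all genes. Gata6, an endoderm transcription factor, read 9.61 and 9.76 in d-NSC and 8.02 and 8.05 in CNS-NSC. Sox17 read 8.64 and 8.77 against 6.64 and 6.92, and Plat, the marker that was lower, 9.87 and 9.97 against 12.18 and 11.93. Of 7 meningeal markers 5 were higher and 0 lower in d-NSC than in p-NSC_LF (71.4%), with means of 8.29 to 8.33 against 6.85 to 6.98, and of 8 cartilage markers 4 were higher and 3 lower (87.5%). Of 9 endothelial and pericyte markers 3 were higher and 3 lower there (66.7%), and of 7 neural crest markers 3 and 3 (85.7%). The part of these cells in the collagen differences was not tested.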

How the data were processed

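RNA from 10 cultures was hybridised to Affymetrix gene arrays. The authors deposited log2 intensities of 35556 probe sets on every array. According to the submitters' processing notes they involved RMA and Partek, with no version stated, and the range of the values gave the base of the log. The number of arrays limits the precision. Probe sets were named through the platform annotation: 21789 had 1 symbol, 1621 several and 12146 none, and 21698 of the first matched RefSeq (GRCm38.p6), with 0 symbols changed. The sources used here do not give the genome build of the probe sets.

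For 999 genes with several probe sets, that with the highest mean was kept. limma 3.58.1 in R 4.3.3 fitted 1 mean per group over 10 arrays, with 5 residual and 4.9 prior degrees of freedom and a median SE of 0.13. Benjamini-Hochberg adjustment ran over 19938 genes per comparison, with 0.05 as threshold. The fit was tried on simulated data, with known changes planted in p-NSC_L minus mESC and noise independent between genes. That trial does not cover shifts shared by the genes of an array. Tables came from pandas 2.3.3 and plots from matplotlib 3.10.9, under Python 3.11.15. No pair of arrays was identical. The series calls the arrays of a group biological replicates.

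The members and lists were chosen with earlier results of these data known. Values on every array were to be printed for collagens past 2-fold and the threshold in any comparison, whose brighter group reached the level of the median gene, and for neighbouring pairs. Of other lists, up to 3 called rises and 3 falls per comparison and landmark genes could be named. The text marks collagens outside this rule as chosen with their values in view. Fkbp10, Adamts2, Loxl2, Gp6, Mmp15 and Fbn1 were not analysed here. Alternatives were quantile and cyclic loess normalization, leaving out the dimmer 30% or 50% of genes, a trended prior, an unmoderated test, array weights, a fit of only the 2 groups compared, a replicate block, mean probe sets and leaving out each array.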

Additional observations from a re-analysis of the deposited data

How the results depend on the processing

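Of the 36 called collagen differences, 21 stayed called without each array in turn and under the 10 other settings wherever the gene was tested, and 0 reversed. Another 15 were lost without at least 1 array. With 1 array left out, the collagens called numbered 2 to 5 in p-NSC_L minus mESC (4 with all arrays, and 2 without mESC replicate 1 or mESC replicate 2), 0 in p-NSC_LF minus p-NSC_L, 5 to 6 in d-NSC minus p-NSC_LF (9 with all arrays, and 5 without p-NSC_LF replicate 1), 9 to 11 in d-NSC minus CNS-NSC and 7 to 11 in CNS-NSC minus mESC. The lone array left in such a group is assumed to vary like the others. In d-NSC minus p-NSC_LF the count was 14 with array weights and 14 with only the 2 groups fitted. With the dimmer 50% of genes left out, 14 collagens were tested, and the count was 8 in d-NSC minus CNS-NSC and 3 in CNS-NSC minus mESC, which fewer genes tested can account for. With the replicate number as a block the counts were 4, 0, 9, 13 and 10, the same genes as without it. Same-numbered arrays of 2 groups had deviations that correlated at -0.107 to 0.375. This was over 0.1 in 6 of 10 group pairs, which were all the pairs without d-NSC. The main fit did not treat the samples as paired, and the replicate block above allows for a shift shared by same-numbered arrays. Other settings that lost a call were the unmoderated test, quantile normalization and the fit of only the 2 groups, for Col18a1 and Col20a1 in p-NSC_L minus mESC, Col4a2 and Col11a1 in d-NSC minus p-NSC_LF, and Col6a2, Col15a1 and Col28a1 in d-NSC minus CNS-NSC, with adjusted p up to 0.1. Col12a1 was not tested with the dimmer 50% left out.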
